A study of Chlorocebus aethiops with 12 samples.

Results

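The Wnt pathway was followed through 45 member accessions, human transcripts of Wnt ligands, Frizzled and LRP receptors, DVL, AXIN, GSK3B, APC, CTNNB1, LEF1 and TCF7 factors, and of the feedback genes NKD, DKK1, RNF43, ZNRF3, LGR5, SP5, NOTUM and SFRP1. Members were the non-control probes that carry one of these accessions, whatever their signal. The array held probes for 42 of the 45 accessions, among 32379 accessions in all, and 40 of the 42 were tested among 23757. The 3 members without a probe were NM_032173, taken as ZNRF3, and the Wnt ligand accessions NM_032642 and NM_003395. NM_007197, a Frizzled accession, and NM_003667, taken as LGR5, were well above background on 0 of 12 arrays and did not enter the test. The files hold accessions and no gene names, so the classes are those of the member list, and the place of each accession in them was assigned from knowledge of the human RefSeq records and not looked up in a table.

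COS-1, the source of the RNA, is a monkey kidney line with fibroblast-like shape. It was measured on one-colour Agilent arrays designed for human transcripts. How well each probe matches the monkey transcript was not tested, so a dim probe does not show that a transcript was absent. Cells carried transfected glucocorticoid receptor (GR), a hormone-activated transcription factor, either alone or together with MDFIC, a protein with a MyoD family inhibitor domain. At 48 h after transfection they received vehicle or dexamethasone (Dex) at 100 nM, a man-made hormone bound by GR, for 6 h, so that all 4 groups carried transfected GR. Each group, named here GR vehicle, GR Dex, GR+MDFIC vehicle and GR+MDFIC Dex, held 3 biological replicates, and whether these were separate transfections is not given in the sources used here. P-values therefore measure only the spread between these samples, which may be technical. Every group was grown in charcoal-stripped serum from the day after transfection, and the share of cells that took up the transfected DNA is not given in the sources used here. In such bulk RNA, fewer cells with a transcript and less transcript per cell cannot be told apart.

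In the canonical Wnt pathway, a secreted lipid-modified Wnt ligand binds a Frizzled receptor and an LRP co-receptor, and DVL carries the signal inward. Without ligand, a complex built on AXIN and APC lets the kinase GSK3B mark β-catenin, the product of CTNNB1, for destruction. With ligand, β-catenin enters the nucleus, joins LEF1 and TCF7 factors on DNA and switches on targets, several of which dampen the pathway again. The member list names MDFIC as a protein that binds Axin and LEF1, and the comparisons asked how Dex and MDFIC moved the transcripts of this pathway.

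Values are log2 signals relative to the 75th percentile of each array, so a level of 0 is that percentile and 1 unit is a doubling. The arrays lay on 3 slides. Slide 1 held the 3 GR vehicle arrays and GR Dex replicate 1, slide 2 held GR Dex replicates 2 and 3 and GR+MDFIC vehicle replicates 1 and 2, and slide 3 held GR+MDFIC vehicle replicate 3 and the 3 GR+MDFIC Dex arrays. Between 70.3% and 75.2% of spots were well above background, but slide 3, read on another scanner, had a mean 75th percentile of 385 against 849 and 867 on slides 1 and 2. The first principal component, 47.0% of the variance, set the 4 arrays of slide 3 apart from the other 8, so GR+MDFIC vehicle replicate 3 lay with the Dex arrays of its slide and away from its own group. The called Dex effects of members were therefore also given with slide as a block. That block leaves the difference within slide 1 (1 Dex array against 3) for GR cells. For GR+MDFIC cells it leaves the difference within slide 3 (3 Dex arrays against 1). Differences, counts and figures come from the fit without slide unless another setting is named. No slide held both groups of an MDFIC comparison, so within a slide MDFIC and slide cannot be told apart, and the block sets such groups side by side only through arrays of the other groups. The used probe of NM_199072, taken as MDFIC, was 8.91 higher with MDFIC in vehicle and 8.40 higher in Dex, and all 6 GR+MDFIC arrays lay above all 6 GR arrays. A second probe of that accession lay -0.17 and -0.24 from the GR groups and did not follow the label. The used probe fell in GR+MDFIC cells by 0.58 with Dex (adjusted p = 0.0105, limma), with all 3 Dex arrays below the vehicle arrays. No probe carried NM_000176, fixed as the accession of GR, so the level of GR was not checked here. The glucocorticoid-response check accessions NM_004117 and NM_002616 rose with Dex by 0.85 and 0.80 in GR cells and by 0.9995 and 0.89 in GR+MDFIC cells. Of the marker accessions with a probe, 5 of 5 for kidney epithelium and 2 of 3 for fibroblast-like cells were well above background on all 12 arrays. So were NM_000477 (hepatocyte) and NM_002055 (astrocyte) among the 4 for other cell types. A second probe of NM_002055 was well above background on 0 of 12 arrays. The leukocyte and endothelial markers NM_002838 and NM_000442 were so on none.

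With Dex in GR cells, the Wnt ligand NM_030775 rose 1.84-fold and the Frizzled receptors NM_003505 and NM_012193 rose 1.36- and 1.21-fold, while the secreted inhibitor DKK1 (NM_012242) fell by 0.40 on the log2 scale. With Dex in GR+MDFIC cells the same 4 accessions changed in the same directions, and an AXIN accession and SFRP1 rose as well. The kinase GSK3B, APC, β-catenin and LEF1 passed the test in neither. A transcript was called where limma's adjusted p, by Benjamini-Hochberg over all 23757 accessions, was under 0.05. The differences above are those of each accession's brightest probe. The mean of an accession's probes gave -0.35 for the AXIN accession in GR+MDFIC cells and 0.12 for NM_003505 in GR cells, neither called. After normexp background correction with quantile scaling the NM_030775 differences were smaller, 0.16 in GR cells (not called) and 0.29 in GR+MDFIC cells. In GR cells 7 of 40 members were called, 4 higher and 3 lower, where 7.10% of all accessions were called, 4.37% higher and 2.73% lower. In GR+MDFIC cells 7 of 40 were called, 5 higher and 2 lower, where 13.5% of all accessions were called, 6.63% higher and 6.90% lower. The median difference over the 40 members was 0.0021 (GR cells) and 0.019 (GR+MDFIC cells), beside 0.0072 and -0.0061 over all accessions. Of the 7 calls in each comparison 5 were shared, with the same direction in both. Dex and vehicle arrays did not overlap for 11 of 40 members in GR cells, or 27.5% against 26.2% of all accessions, and for 15 in GR+MDFIC cells, or 37.5% against 32.1%. With slide as a block 2 members were called in each comparison, NM_030775 and NM_012193 in both. Leaving out 1 array gave 3 calls in GR cells without replicate 2 or 3 of GR vehicle or any GR Dex array, and 4 without replicate 1 of GR vehicle or of GR+MDFIC vehicle. In GR+MDFIC cells it gave 4 without replicate 2 of either GR+MDFIC group. Without GR+MDFIC vehicle replicate 3 it gave 11, or 27.5% against 26.5% of all accessions in that fit. Over all accessions, leaving out 1 array gave 1064 to 1777 calls in GR cells and 1817 to 6287 in GR+MDFIC cells.

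**Figure D1:**
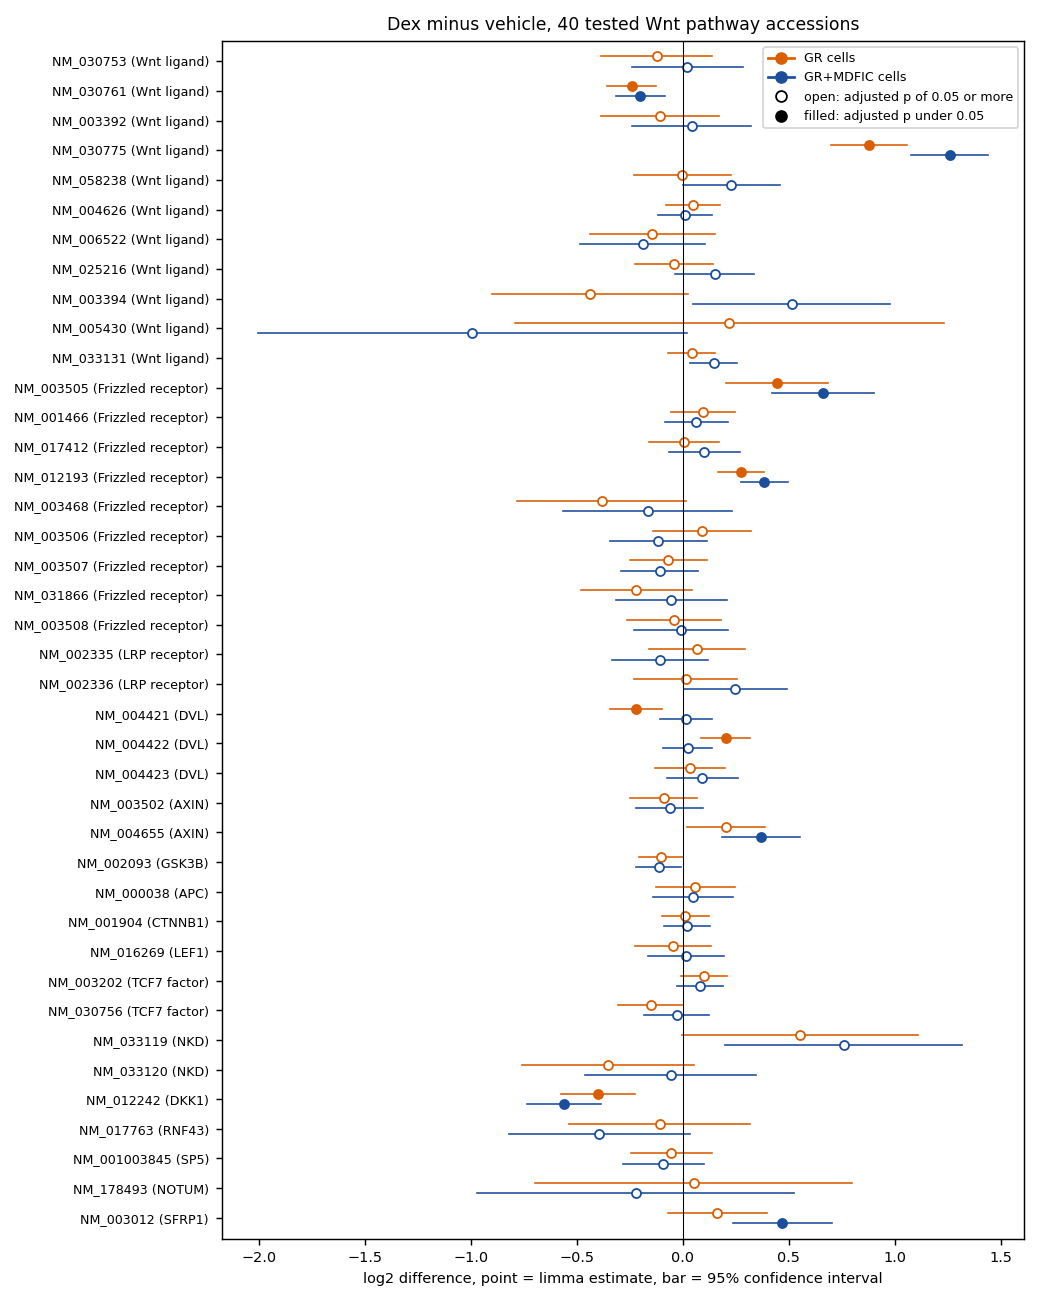
Log2 difference of Dex against vehicle for the 40 tested Wnt pathway accessions (vertical axis), in cells with GR alone and with GR+MDFIC, with limma's estimate as a point and its 95% confidence interval as a bar, filled where the adjusted p was under 0.05. The medians are 0.0021 and 0.019, and NM_030775 stands at 0.88 and 1.26, above all others. After normexp background correction with quantile scaling its values were smaller, 0.16 and 0.29.

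Among the ligands, NM_030775 had the largest called change. Its mean level in each vehicle group was the lowest of the 40 tested members, though well above background on all 12 arrays. Its level was -5.21, -5.40 and -5.25 on the 3 GR vehicle arrays and -4.43, -4.30 and -4.50 on the GR Dex arrays. Co-transfected cells gave -5.36, -5.34 and -5.22 with vehicle and -4.03, -3.94 and -4.17 with Dex. Every Dex array lay above every vehicle array in both pairs. The rise was 0.88 (SE 0.08, adjusted p = 0.000148 by limma) in GR cells and 1.26 (SE 0.08, adjusted p = 1.12e-05) in GR+MDFIC cells, or 2.39-fold. With slide as a block it was 0.85 (adjusted p = 0.00985, limma) and 1.17 (adjusted p = 0.00202, limma), both still called. The GR rise was not called after normexp background correction with quantile scaling (0.16, adjusted p = 0.0941, limma), which left the GR+MDFIC rise called but smaller (0.29, adjusted p = 0.00262, limma), and over all alternatives adjusted p was 6.55e-05 to 0.0941 in GR and 3.79e-06 to 0.00274 in GR+MDFIC cells.

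NM_030761, the other called ligand accession, fell. Its level was 2.30, 2.23 and 2.21 in GR vehicle and 2.10, 1.95 and 1.97 in GR Dex cells. Its GR+MDFIC values were 2.11, 2.18 and 2.10 with vehicle and 1.89, 1.96 and 1.93 with Dex. The groups did not overlap in either pair, and the fall was 0.24 (SE 0.051, adjusted p = 0.0197, limma) and 0.20 (SE 0.051, adjusted p = 0.0307). Its second probe differed by -0.088 and -0.077. With slide as a block the values were -0.15 (adjusted p = 0.285, limma) and -0.17 (adjusted p = 0.244), and the call was lost. Over all alternatives adjusted p was 0.00712 to 0.285 in GR and 0.0143 to 0.244 in GR+MDFIC cells (limma). Leaving out replicate 1 or 2 of GR vehicle, or replicate 2 or 3 of GR Dex, also ended the GR call (adjusted p 0.0556 to 0.0794, limma), and leaving out replicate 1 or 2 of GR+MDFIC vehicle, or any GR+MDFIC Dex array, ended the other (adjusted p 0.0586 to 0.102). The other 9 tested ligands were not called, with differences of -0.44 to 0.22 in GR cells and -0.99 to 0.51 in GR+MDFIC cells.

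Both called receptors rose. NM_012193, a Frizzled accession, was at 1.06, 0.99 and 1.02 in GR vehicle and 1.34, 1.30 and 1.26 in GR Dex cells. With MDFIC it was at 0.99, 0.98 and 0.86 in vehicle and 1.31, 1.38 and 1.31 in Dex. The groups did not overlap, and the rise was 0.27 (SE 0.049, adjusted p = 0.008, limma) and 0.39 (SE 0.049, adjusted p = 0.000887, limma). A second probe of the accession differed by 0.36 and 0.57. With slide as a block both rises stayed called, at 0.32 and 0.47 (adjusted p = 0.0307 and 0.00523, limma). The GR rise was not called with median scaling (0.25, adjusted p = 0.0527, limma) or the mean of the probes (0.32, adjusted p = 0.0535, limma). In GR+MDFIC cells it was called in all 24 alternatives tried, as was NM_030775 (highest adjusted p 0.0279 and 0.00274, limma).

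NM_003505, the other called Frizzled accession, was at 0.44, 0.37 and 0.56 in GR vehicle and 0.86, 0.74 and 1.10 in GR Dex cells. In GR+MDFIC cells it was at 0.27, 0.058 and 0.32 with vehicle and 0.75, 0.91 and 0.96 with Dex, again without overlap. The rise was 0.44 (SE 0.11, adjusted p = 0.0352, limma) and 0.66 (SE 0.11, adjusted p = 0.00346, limma). Its 2 probes disagreed in GR cells, where the second gave -0.20 and the mean of the probes was not called (0.12, adjusted p = 0.873, limma), while with MDFIC the second probe gave 0.97. Under the slide block the values were 0.41 and 0.56 (adjusted p = 0.251 and 0.125, limma), and over all alternatives adjusted p was 0.000776 to 0.125 in GR+MDFIC cells. The GR call was lost in 14 of 25 alternatives (adjusted p 0.0139 to 0.873 over all of them, limma), including the removal of any GR array but GR Dex replicate 2, or of replicate 1 of GR+MDFIC vehicle, or of replicate 2 or 3 of GR+MDFIC Dex (0.35 to 0.50, adjusted p 0.051 to 0.114). The other 7 tested Frizzled accessions differed by -0.38 to 0.10 and -0.16 to 0.10, and the 2 LRP co-receptor accessions by 0.014 to 0.067 and -0.11 to 0.25, none called.

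Of the 3 DVL accessions, cytoplasmic transducers that link Frizzled to the destruction complex, 2 were called, in GR cells. NM_004421 was at 5.78, 5.74 and 5.70 in GR vehicle and 5.53, 5.51 and 5.51 in GR Dex cells. The GR+MDFIC arrays gave 5.50, 5.41 and 5.56 with vehicle and 5.51, 5.59 and 5.42 with Dex. It fell by 0.22 (SE 0.055, adjusted p = 0.0406, limma) without overlap in GR cells and differed by 0.017 in GR+MDFIC cells, where the groups overlapped. Its second probe differed by -0.014 and 0.052, and the mean of the probes was not called in GR cells (-0.12, adjusted p = 0.349, limma). NM_004422 was at 0.0035, -0.16 and -0.083 in GR vehicle and 0.13, 0.12 and 0.12 in GR Dex cells. Co-transfected cells had 0.07, 0.046 and -0.059 with vehicle and 0.026, 0.074 and 0.028 with Dex. This one rose by 0.20 (SE 0.052, adjusted p = 0.0478, limma) in GR cells and differed by 0.024 in GR+MDFIC cells. With slide as a block neither GR value was called (-0.21, adjusted p = 0.24, and 0.21, adjusted p = 0.183, limma). The calls were lost in 14 of 25 and 19 of 25 alternatives, over which adjusted p was 0.0162 to 0.349 and 0.0293 to 0.196 (limma). For NM_004421 these included leaving out any GR array or replicate 1 of either GR+MDFIC group (adjusted p 0.0604 to 0.135, limma), and for NM_004422 any array but GR vehicle replicate 1 and GR+MDFIC vehicle replicate 3 (adjusted p 0.0579 to 0.147, limma).

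**Figure D2:**
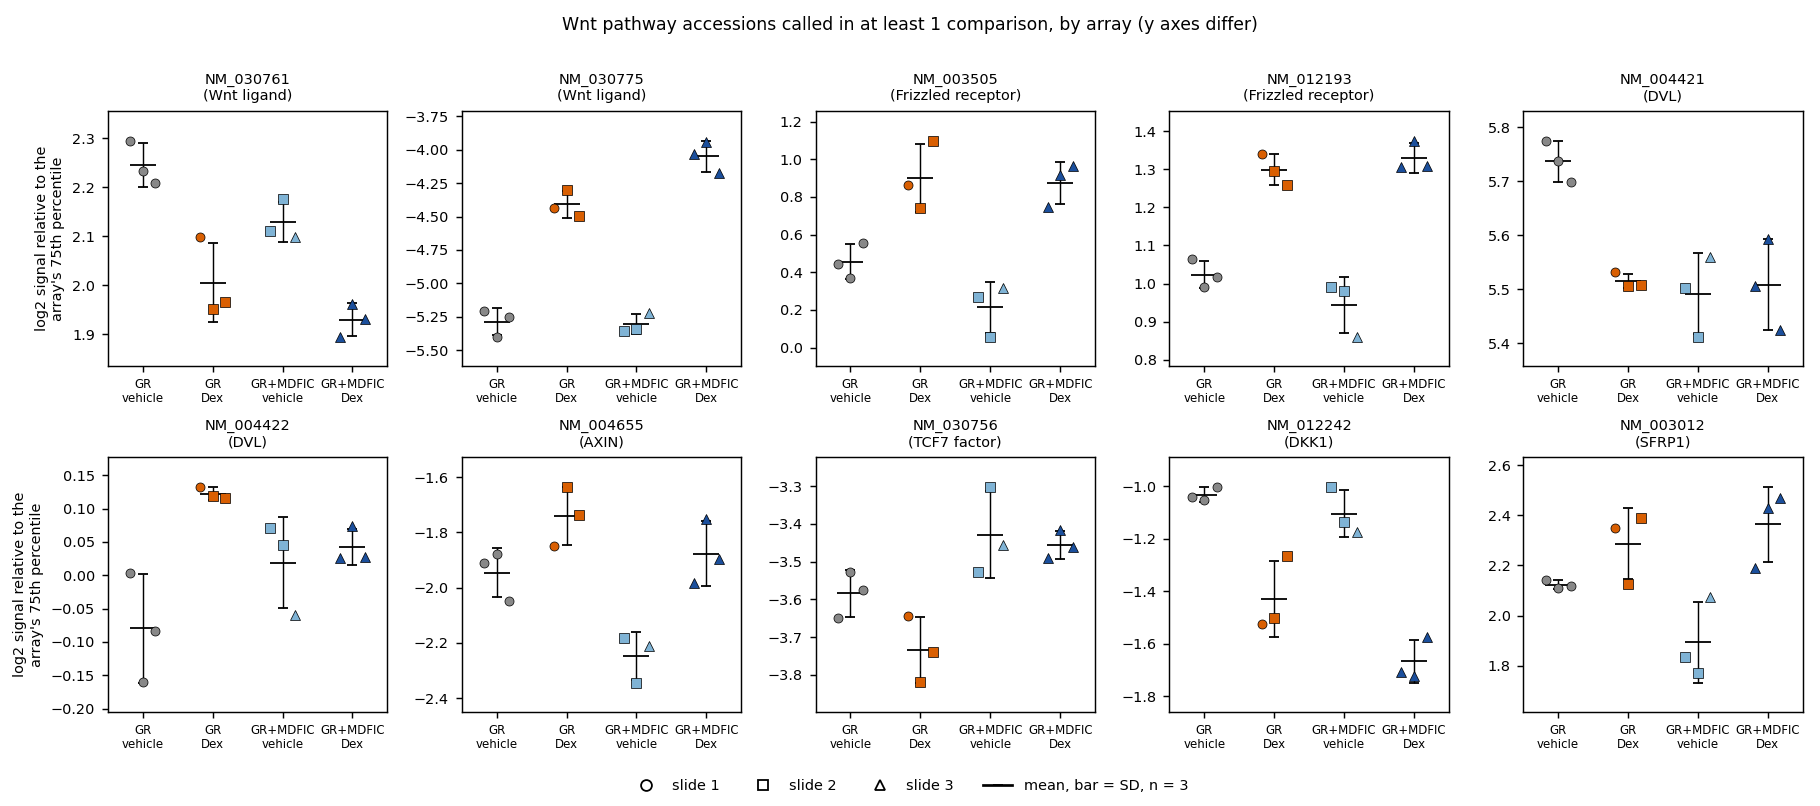
Level of the 10 called Wnt pathway accessions on each of the 12 arrays, as log2 signal relative to the array's 75th percentile, with point shape for the slide and the mean and SD of each group of 3; vertical scales differ between panels. NM_030775, NM_003505 and NM_012193 lie higher in both Dex groups and NM_012242 lower, with no overlap between Dex and vehicle in either cell background.

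At the destruction complex, the scaffold accession NM_003502 was at 1.35, 1.30 and 1.22 in GR vehicle and 1.28, 1.24 and 1.07 in GR Dex cells. Its values in GR+MDFIC cells were 1.23, 1.19 and 1.24 with vehicle and 1.28, 1.12 and 1.08 with Dex. All 4 groups overlapped, and the Dex differences were -0.09 and -0.061 (adjusted p = 0.568 and 0.582, limma). The other AXIN accession, NM_004655, was at -1.91, -1.88 and -2.05 in GR vehicle and -1.85, -1.64 and -1.74 in GR Dex cells. Its values in GR+MDFIC cells were -2.18, -2.34 and -2.21 with vehicle and -1.98, -1.75 and -1.90 with Dex. Dex and vehicle arrays did not overlap in either pair, and the difference was 0.21 (adjusted p = 0.202, limma), not called, in GR cells and a rise of 0.37 (SE 0.082, adjusted p = 0.0172) in GR+MDFIC cells. A second, dimmer probe, well above background on 10 of 12 arrays, differed by 0.19 in GR and -1.08 in GR+MDFIC cells, so the mean of both probes turned the sign of the called value (-0.35, adjusted p = 0.102, limma). The call was also lost with slide as a block (0.33, adjusted p = 0.213, limma) and without replicate 2 of either GR+MDFIC group (0.31 to 0.32, adjusted p 0.0595 to 0.0648), and over all alternatives adjusted p was 0.011 to 0.213. The kinase GSK3B (NM_002093) differed by -0.10 and -0.11, the scaffold APC (NM_000038) by 0.059 and 0.049 and β-catenin (NM_001904) by 0.012 and 0.02, none called.

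The DNA-binding partners of β-catenin showed no called Dex effect. LEF1 (NM_016269) was at -0.56, -0.75 and -0.61 in GR vehicle and -0.65, -0.63 and -0.77 in GR Dex cells. MDFIC cells had -0.79, -0.82 and -0.84 in vehicle and -0.97, -0.69 and -0.74 in Dex. The Dex differences were -0.045 (95% interval -0.22 to 0.13) and 0.017 (-0.16 to 0.20), and vehicle and Dex arrays overlapped. Both intervals hold for the brighter of the 2 LEF1 probes. The TCF7 factor accession NM_003202 was at -3.63, -3.73 and -3.79 in GR vehicle and -3.60, -3.66 and -3.59 in GR Dex cells. Its values with MDFIC were -3.65, -3.66 and -3.63 in vehicle and -3.61, -3.55 and -3.54 in Dex. The Dex differences were 0.10 (with overlap) and 0.083 (without overlap), neither called. NM_030756, the other TCF7 factor accession, was at -3.65, -3.53 and -3.58 in GR vehicle and -3.65, -3.82 and -3.74 in GR Dex cells. With MDFIC its values were -3.53, -3.30 and -3.46 in vehicle and -3.49, -3.42 and -3.46 in Dex. Its Dex differences were -0.15 and -0.027, and its vehicle and Dex arrays overlapped in both.

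Of the feedback genes and secreted inhibitors, DKK1 fell and SFRP1 rose. DKK1 (NM_012242), which blocks the LRP co-receptor, was at -1.04, -1.05 and -1.001 in GR vehicle and -1.52, -1.50 and -1.26 in GR Dex cells. In GR+MDFIC cells it was at -1.004, -1.14 and -1.17 with vehicle and -1.71, -1.72 and -1.57 with Dex. Dex arrays lay below vehicle arrays in both pairs, and the fall was 0.40 (SE 0.078, adjusted p = 0.0137, limma) and 0.56 (SE 0.078, adjusted p = 0.00153, limma). With slide as a block the differences were -0.49 and -0.49 (adjusted p = 0.054 and 0.0562, limma), not called. Leaving out replicate 3 of GR vehicle or replicate 1 or 2 of GR Dex also ended the GR call (adjusted p 0.0563 to 0.0592, limma). Over all alternatives adjusted p was 0.00383 to 0.0602 in GR and 0.00043 to 0.0562 in GR+MDFIC cells (limma).

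SFRP1 (NM_003012), a secreted protein that binds Wnt ligands, was at 2.14, 2.11 and 2.12 in GR vehicle and 2.35, 2.12 and 2.39 in GR Dex cells. Co-expression of MDFIC gave 1.83, 1.77 and 2.08 in vehicle and 2.19, 2.43 and 2.47 in Dex. The groups overlapped in GR cells (0.16, adjusted p = 0.462, limma) and not in GR+MDFIC cells, where it rose by 0.47 (SE 0.10, adjusted p = 0.0168, limma). A second probe differed by 0.35 and 0.24. The block on slide gave 0.29 (adjusted p = 0.36, limma), and leaving out replicate 1 or 2 of GR+MDFIC vehicle, or replicate 2 or 3 of GR+MDFIC Dex, ended the call (adjusted p 0.0593 to 0.0647, limma; 0.00421 to 0.36 over all alternatives). The NKD accession NM_033119, an inhibitor that binds DVL, had the largest uncalled positive differences, 0.55 (SE 0.25, adjusted p = 0.265, limma) and 0.76 (SE 0.25, adjusted p = 0.0737). The difference in GR+MDFIC cells was called after normexp correction with quantile scaling (0.38, adjusted p = 0.0447, limma), with an intensity trend and robust variance (0.76, adjusted p = 0.0482) and without GR vehicle replicate 1 (0.76, adjusted p = 0.0407). The other NKD accession, NM_033120, differed by -0.35 and -0.056, the receptor-removing ligase RNF43 (NM_017763) by -0.11 and -0.39, and the transcription factor SP5 (NM_001003845) by -0.055 and -0.091, all uncalled.

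In the presence of MDFIC without hormone, 0 of 40 members were called by limma, where 0.846% of all accessions were. At an unadjusted p under 0.05 stood 15 of the 40, or 37.5%, beside 17.5% of all accessions, and 28 of the 40 estimates were below 0, with a median of -0.076, beside 50.5% of all accessions below 0 and a median of -0.002. The groups did not overlap for 13 members, or 32.5%, against 22.2% of all accessions. No slide held both groups, so these shares and medians do not separate MDFIC from slide. Over all accessions limma called 201, and 70 with slide as a block. Among the members the lowest adjusted p was that of the DVL accession NM_004421 (-0.25, adjusted p = 0.0776, limma). It passed the threshold with an intensity trend and robust variance (-0.25, adjusted p = 0.0375, limma; 0.0375 to 0.485 over all alternatives), where 1 member was called. Differences among the 40 members lay between -0.46 and 0.49.

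Axin and LEF1, which the member list names as partners of MDFIC, had no called difference with it by the brightest probe of each accession. NM_003502 differed by -0.068 (95% interval -0.23 to 0.089) in vehicle and -0.039 (-0.20 to 0.12) in Dex, and the arrays overlapped. NM_004655 differed by -0.30 (SE 0.082, adjusted p = 0.126, limma) in vehicle, where the 3 GR+MDFIC arrays lay below the 3 GR arrays, and differed by -0.14 (adjusted p = 0.344) in Dex, where they overlapped. The second probe of NM_004655 differed by -0.064 in vehicle and -1.33 in Dex, and with the mean of both probes the difference in Dex was called lower (-0.73, adjusted p = 0.0234, limma). LEF1 differed by -0.18 (95% interval -0.36 to 0.0016, adjusted p = 0.287, limma) in vehicle, without overlap, and by -0.12 (-0.30 to 0.064, adjusted p = 0.414) in Dex, with overlap. Its second probe gave 0.49 and 0.41, of the opposite sign. NM_003202 differed by 0.065 and 0.048. A p above the threshold does not show that these levels were the same. The intervals hold for the brightest probe in the fit without slide, and no slide held both groups. The second LEF1 probe lay outside both LEF1 intervals, so they do not bound the difference for the transcript.

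β-catenin (NM_001904) and GSK3B (NM_002093) differed with MDFIC in opposite directions, and neither was called. β-catenin was at 2.10, 2.07 and 2.14 in GR vehicle and 2.12, 2.08 and 2.15 in GR Dex cells. On the MDFIC arrays it was at 2.01, 1.87 and 1.95 in vehicle and 1.94, 1.92 and 2.02 in Dex. The differences were -0.16 (adjusted p = 0.154, limma) in vehicle and -0.15 (adjusted p = 0.0909) in Dex, with no overlap in either. GSK3B was at -0.38, -0.29 and -0.32 in GR vehicle and -0.41, -0.47 and -0.42 in GR Dex cells. With MDFIC co-expressed it was at -0.24, -0.15 and -0.14 in vehicle and -0.34, -0.28 and -0.26 in Dex. It differed by 0.15 (adjusted p = 0.164, limma) and 0.14 (adjusted p = 0.106), again with no overlap. No slide held both groups of either comparison, so MDFIC and slide cannot be told apart. Over all alternatives adjusted p was 0.10 to 0.625 and 0.0566 to 0.818 for β-catenin (limma). For GSK3B it was 0.135 to 0.576 and 0.0906 to 0.876. The β-catenin values are those of the brighter of its 2 probes. APC differed by 0.19 and 0.18, and RNF43 by 0.49 and 0.20.

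**Figure D3:**
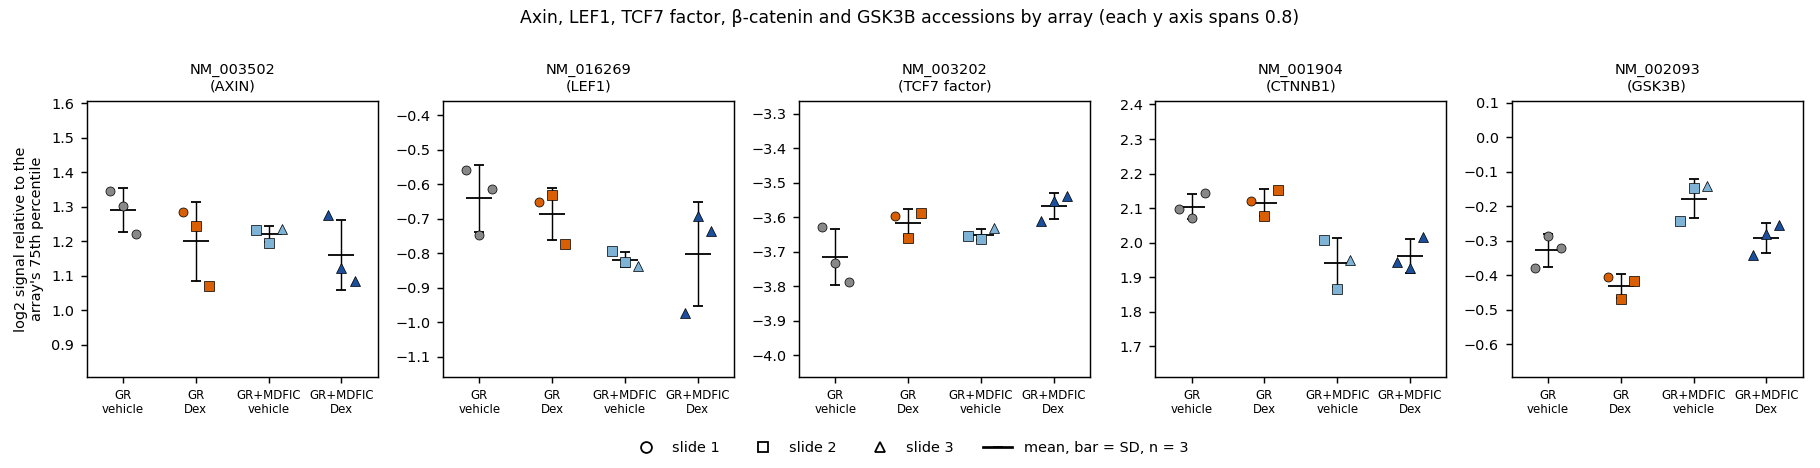
Level of the accessions NM_003502 (AXIN), NM_016269 (LEF1), NM_003202 (TCF7 factor), NM_001904 (CTNNB1) and NM_002093 (GSK3B) on each of the 12 arrays, as log2 signal relative to the array's 75th percentile, with each vertical axis spanning 0.8, point shape for the slide and the mean and SD of each group of 3. Within each treatment the GR+MDFIC arrays lie below the GR arrays for NM_001904 (-0.16 in vehicle, -0.15 in Dex) and above them for NM_002093 (0.15 and 0.14), all uncalled. No slide held both groups.

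Under Dex, 2 of 40 members were called higher with MDFIC and 0 lower, where 5.59% of all accessions were called, 2.65% higher and 2.94% lower. The Wnt ligand NM_030775, whose values stand above, was 0.36 higher (SE 0.08, adjusted p = 0.0383, limma), and the TCF7 factor accession NM_030756 was 0.28 higher (SE 0.068, adjusted p = 0.0476, limma). All 3 GR+MDFIC Dex arrays lay above all 3 GR Dex arrays for both. This comparison shares its Dex arrays with those of Dex against vehicle. In vehicle the same accessions differed by -0.019 and 0.16. Under the slide block the Dex differences were 0.22 and 0.37 (adjusted p = 0.832 and 0.673, limma), and leaving out any GR array or any GR+MDFIC Dex array ended both calls (adjusted p 0.0513 to 0.106 for NM_030775 and 0.0633 to 0.134 for NM_030756, limma). So did normexp correction with quantile scaling (0.12, adjusted p = 0.161, and 0.066, adjusted p = 0.443, limma). Over all alternatives adjusted p was 0.0189 to 0.832 and 0.0293 to 0.673 (limma). Without GR+MDFIC vehicle replicate 2 or 3 the count was 4 or 5, and without replicate 3 the 5 were 12.5% of the members against 13.1% of all accessions. The second probe of NM_030756 gave 0.19. The groups did not overlap for 12 of 40 members, or 30%, against 32.1% of all accessions.

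**Figure D4:**
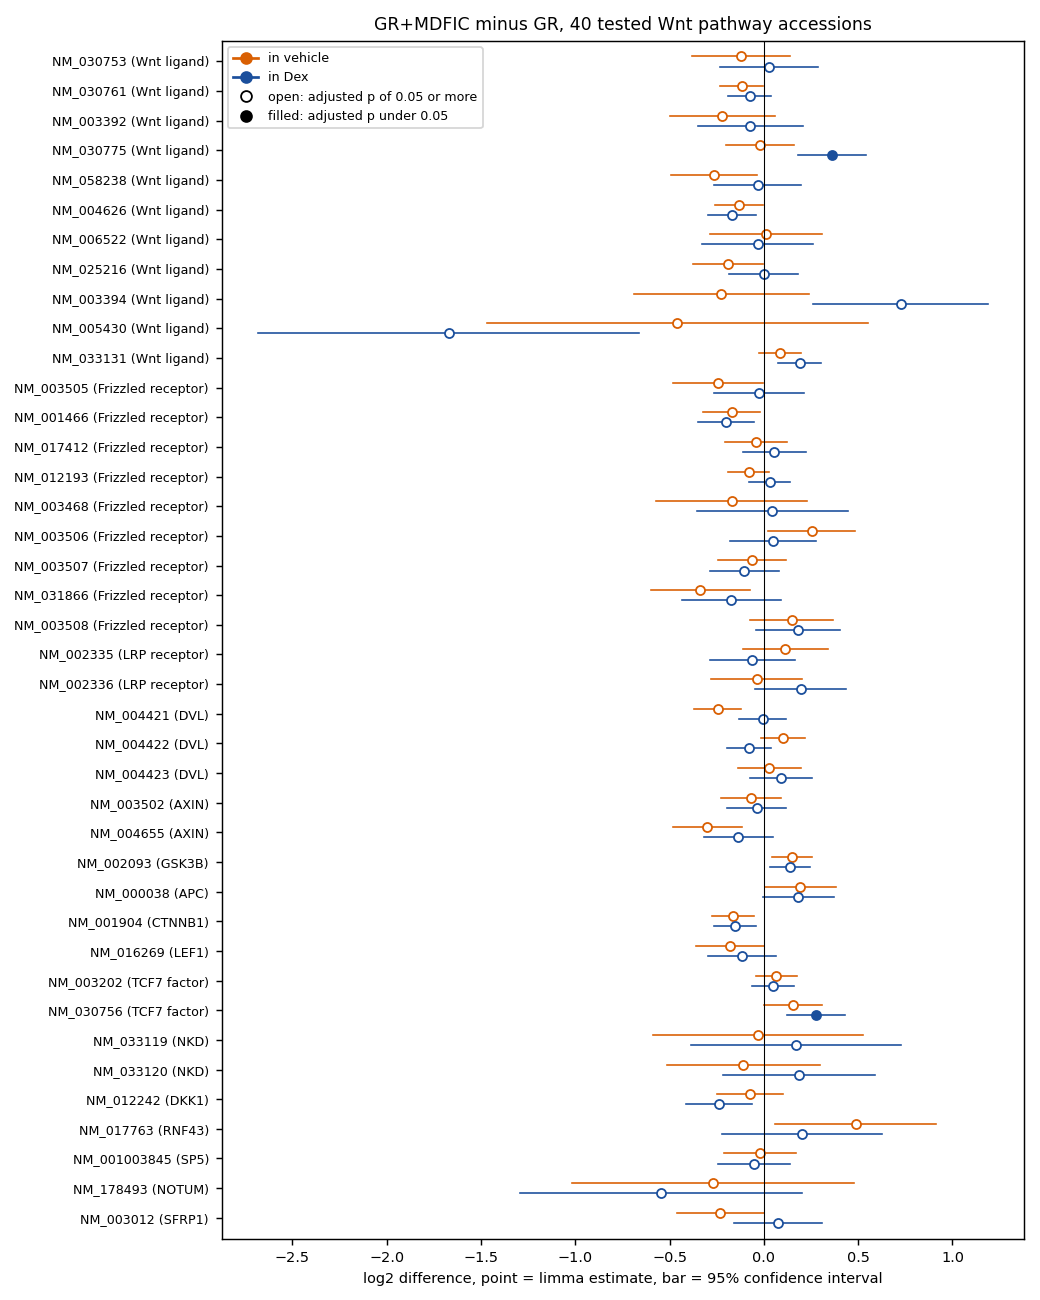
Log2 difference of GR+MDFIC against GR cells for the 40 tested Wnt pathway accessions (vertical axis), in vehicle and in Dex, with limma's estimate as a point and its 95% confidence interval as a bar, filled where the adjusted p was under 0.05. No point is filled for vehicle, and NM_030775 and NM_030756 are filled for Dex, at 0.36 and 0.28.

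Whether MDFIC changed the Dex response was asked with the interaction, the Dex difference in GR+MDFIC cells minus that in GR cells. No member passed: 0 of 40 were called by limma, where 0.0589% of all accessions were, 0.00421% higher and 0.0547% lower, and 4 of 40 stood at an unadjusted p under 0.05, beside 9.85% of all accessions. The lowest adjusted p was 0.499. The ligand NM_030775 differed by 0.38 (95% interval 0.13 to 0.64), NM_003394 by 0.95 (0.29 to 1.61), NM_004421 by 0.24 (0.065 to 0.41) and NM_004422 by -0.18 (-0.34 to -0.014). Accessions called in 1 background only, NM_004421 and NM_004422 in GR cells and NM_004655 and NM_003012 in GR+MDFIC cells, are thus not shown to differ between them. For AXIN the interaction was 0.029 (NM_003502) and 0.16 (NM_004655), and for LEF1 0.062.

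The ligand accession NM_005430 was low on every array of slide 3. Its level was -3.03, -3.06 and -3.12 in GR vehicle and -2.84, -2.87 and -2.84 in GR Dex cells. With MDFIC it was -2.96, -2.85 and -4.78 in vehicle and -4.55, -4.01 and -5.01 in Dex. The 4 arrays of slide 3, GR+MDFIC vehicle replicate 3 included, lay below the other 8. It was the only member with such a split, 1 of 40 or 2.5%, against 13.1% of all accessions. Its uncalled difference of -1.67 with MDFIC under Dex (adjusted p = 0.0589, limma) was 0.21 with slide as a block. It was called after normexp correction with quantile scaling (-0.68, adjusted p = 0.0171, limma), in the fit of the compared groups only (-1.67, adjusted p = 0.0156), with an intensity trend and robust variance (-1.67, adjusted p = 0.0339), and without GR+MDFIC vehicle replicate 2 (-1.67, adjusted p = 0.0492) or 3 (-1.67, adjusted p = 0.00117). NOTUM (NM_178493), an enzyme that removes the lipid from Wnt, was at -2.76, -2.74 and -2.94 in GR vehicle and -2.70, -2.75 and -2.83 in GR Dex cells. With MDFIC it was at -2.68, -2.59 and -3.98 in vehicle and -3.54, -3.53 and -2.84 in Dex. Its lowest value was that of GR+MDFIC vehicle replicate 3, the vehicle array on slide 3.

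Without GR+MDFIC vehicle replicate 3, 11 members were called for Dex in GR+MDFIC cells and 5 for MDFIC under Dex, or 27.5% and 12.5% of 40, against 26.5% and 13.1% of all accessions in that fit. The interaction called 2 members, or 5%, against 7.57% of all accessions, NM_003394 (1.13, adjusted p = 0.0381, limma) and NM_005430 (-1.84, adjusted p = 0.0104, limma). Over all alternatives adjusted p was 0.0381 to 0.999 and 0.0104 to 0.999 (limma). The ligand NM_003394 was at -4.22, -4.92 and -4.76 in GR vehicle and -4.86, -5.07 and -5.28 in GR Dex cells. MDFIC cells had -5.01, -5.07 and -4.50 in vehicle and -4.48, -4.34 and -4.22 in Dex. In the fit on all arrays its MDFIC difference under Dex was 0.72 (adjusted p = 0.0673, limma) and 0.29 with slide as a block. It was called in the fit of the compared groups only (0.72, adjusted p = 0.0265, limma) and without GR+MDFIC vehicle replicate 3 (0.72, adjusted p = 0.03, limma). With this array left out, GR+MDFIC vehicle and Dex share no slide.

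**Figure D5:**
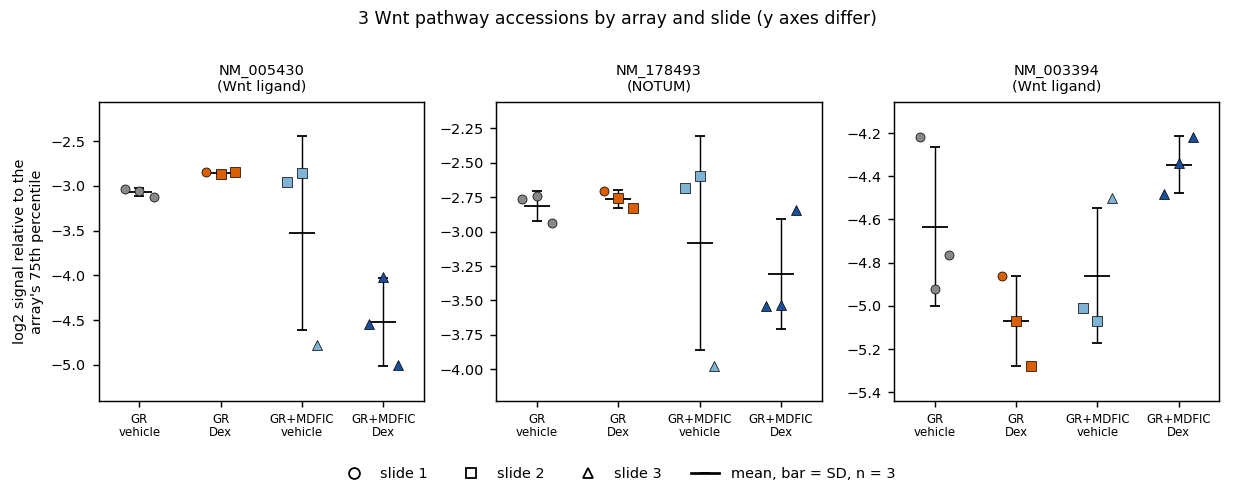
Level of NM_005430, NM_178493 and NM_003394 on each of the 12 arrays, as log2 signal relative to the array's 75th percentile, with point shape for the slide and the mean and SD of each group of 3; vertical scales differ. For NM_005430 the slide 3 arrays lie between -5.01 and -4.01 and the other 8 between -3.12 and -2.84.

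Other genes of the pathway, on 5 lists of 71 accessions, had probes for 62, of which 59 were tested and 15 called in at least 1 comparison, or 25.4%, where 18.5% of all accessions and 10 of the 40 members were. With Dex in GR cells 5 were higher and 4 lower, or 15.3% of 59 against 7.10%, and in GR+MDFIC cells 8 were higher and 4 lower, or 20.3% against 13.5%. The lists were chosen with earlier results of these data known, so these shares do not test the pathway. MDFIC in vehicle called 0 by limma, with 7 at an unadjusted p under 0.05, or 11.9% against 17.5% of all accessions. MDFIC under Dex called 1 higher and 2 lower, or 5.08% against 5.59%. The interaction called 0 by limma, with 5 at an unadjusted p under 0.05, or 8.47% against 9.85%. Called in at least 1 comparison were 5 of 9 well-known targets, 4 of 16 nuclear cofactors, 3 of 10 secretion and extracellular accessions, 2 of 14 of the β-catenin-independent branch and 1 of 10 of the destruction complex and cytoplasm. The secretion count was 1 without any single GR array but GR Dex replicate 2 or without any GR+MDFIC Dex array, and 2 destruction complex accessions were called without GR+MDFIC vehicle replicate 2 or 3.

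Among these, the nuclear cofactor accession NM_005078 was at -0.69, -0.73 and -0.76 in GR vehicle and 0.075, 0.11 and -0.035 in GR Dex cells. Co-expression of MDFIC gave -0.71, -0.67 and -0.69 in vehicle and 0.19, 0.22 and 0.21 in Dex, and it rose by 0.78 and 0.90 (adjusted p = 9.40e-06 and 2.63e-06, limma) without overlap. The well-known target NM_002228 fell by 0.86 and 0.69 with Dex (adjusted p = 0.000536 and 0.00151, limma), and NM_005438 fell by 0.68 and 0.67 (adjusted p = 0.000639 and 0.000514, limma). The 1 call of the destruction complex list, NM_025212, was higher with Dex in GR+MDFIC cells (adjusted p = 0.00228, limma). Only 1 of the 3 GR+MDFIC vehicle arrays was well above background, so the size of that difference was not measured. It was not tested with the filter on all 12 arrays and was not called after normexp correction with quantile scaling (adjusted p = 0.0525, limma). These 4 accessions were chosen after their values were seen.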

How the data were processed

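Total RNA (500 ng) from 12 COS-1 samples was Cy3-labelled and hybridised to one-colour arrays, per the labels. The deposited values were linear intensities, which Agilent Feature Extraction (version 12 in the submitters' processing notes; per the file headers slide 3 had 12.0.3.1 and the other slides 12.0.0.7) had corrected for background with no scaling between arrays. The series-wide table held the same deposited intensity values (largest relative difference 0). Other deposited columns were flags of 0 or 1 for spots well above background, saturated or outliers, and accessions, per the file headers. Each intensity was divided by its array's 75th percentile over non-control spots, and log2 was taken. Spots flagged as outliers were left out (34 values among those tested), saturated spots were kept and replicate spots averaged. Probes entered the fit if some group had them well above background on its 3 arrays and each group had 2 or more unflagged values. The brightest kept probe stood for its accession. Of 66 member probes, 62 passed, and 19 members had several; probes used for the 40 tested members were well above background on all 12 arrays.

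Group means of all 12 arrays were fitted with limma 3.58.1 in R 4.3.3 (8 residual degrees of freedom, two-sided, Benjamini-Hochberg over 23757 accessions, threshold 0.05). Data were read with the data.table package (version 1.17.8) and figures drawn with matplotlib 3.10.9 in Python 3.11.15. The fit was tested on simulated data. The number of arrays limits the precision. Values on every array were given for both AXIN accessions, LEF1, both TCF7 factors and each called member, by the rule fixed in the design. Beyond it, β-catenin, GSK3B, NOTUM and the ligands NM_005430 and NM_003394 were given by array after their values were seen. Members and lists were chosen with earlier results of these data known, so shares above those of all accessions do not test the pathway. No sequences were used here. Alternatives were quantile, median and normexp with quantile scaling (offset 50, on the spot and background medians, since mean signals were not used here), the series table, other filters, the mean of probes, slide and replicate blocks, the compared groups alone, trend and robust variance, and leaving out slide 3 or each array.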

Additional observations from a re-analysis of the deposited data

How the results depend on the processing

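Over 25 alternative settings, the 16 calls of single members had 268 values that stayed called in the same direction, 122 that lost the call and 1 that reversed, NM_004655 with Dex in GR+MDFIC cells under the mean of an accession's probes (-0.35, adjusted p = 0.102, limma). Member counts, in the order Dex in GR cells, Dex in GR+MDFIC cells and MDFIC under Dex, were 7, 7 and 2. They were 6, 7 and 0 with quantile scaling, 4, 6 and 1 with median scaling, 5, 8 and 1 with normexp and quantile scaling, 4, 6 and 0 with no filter, 4, 4 and 2 with the mean of probes, 2, 2 and 0 with slide as a fixed block, 5, 7 and 0 with it as a random block, 2, 4 and 2 in the compared groups alone and 7, 8 and 1 with trend and robust variance, which also called 1 member for MDFIC in vehicle. Without the slide 3 arrays 4 members were called in GR cells, and other comparisons could not be fitted apart from MDFIC in vehicle (0). The series table held the same values, so it could change nothing, and it is counted among the alternatives. Leaving out an array of a group not compared could change the spread and not the difference. Leaving out 1 array gave 3 to 7, 4 to 11 and 0 to 5 members, 0 to 0 for MDFIC in vehicle and 0 to 2 for the interaction. Over all accessions the counts in the same order were 1687, 3216 and 1328, 846, 806 and 49 with slide as a fixed block, 1505, 2533 and 124 with it as a random block, and 1099, 1238 and 2293 in the compared groups alone; MDFIC under Dex gave 867 with no filter, 2329 with normexp and quantile scaling and 2063 with trend and robust variance. MDFIC in vehicle called 201, and 114 with no filter, 70 and 110 with slide as a fixed or random block, 33 in the compared groups alone and 328 with trend and robust variance. The interaction called 14, and 9, 6, 5 and 3 with normexp and quantile scaling, the random block, trend and robust variance, and the filter on all 12 arrays. Leaving out 1 array gave 1064 to 1777, 1817 to 6287 and 90 to 3111, 80 to 558 for MDFIC in vehicle and 2 to 1798 for the interaction.

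Of the other pathway lists, the destruction complex count of 1 was 2 with quantile scaling, normexp, the mean of probes or trend and robust variance, and 0 with the filter on all 12 arrays. The β-catenin-independent count of 2 was 1 with median scaling, the fixed slide block or the compared groups alone, and 4 with the filter on all 12 arrays. The secretion count of 3 was 1 with slide as a random block, the nuclear count of 4 was 2 with it as a fixed block, and the target count of 5 was then 2, or 3 in the compared groups alone. Leaving out 1 array gave 1 to 4 for secretion, 1 to 2 for the destruction complex, 3 to 4 for nuclear cofactors, 2 to 2 for the β-catenin-independent branch and 4 to 6 for targets. The cause of these changes was not tested.

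Deviations of same-numbered samples correlated between -0.108 and 0.060, with 0 of 12 pairs over 0.1, so no pairing by number was seen. Same-numbered arrays mostly lay on different slides, so a shared transfection or batch could go unseen here. With the replicate block 5, 7 and 0 members were called, and 4 in the β-catenin-independent list; over all accessions the block gave 1600, 3299 and 1111, with 112 for MDFIC in vehicle and 5 for the interaction.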
